A study of Mus musculus with 20 samples.

Results

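The genes for the proteins of the cytosolic ribosome were followed through macrophage activation, with and without an itaconate ester. They were chosen by symbol: Rpl or Rps followed by a digit, or Rpsa, Rplp0, Rplp1 or Rplp2, without pseudogene symbols and S6 kinases, and with a mean of at least 10 CPM (counts scaled to a common library total). Of the 22165 genes in the count table, 87 had a matching symbol and 78 reached the limit, 46 with an Rpl symbol and 32 with an Rps symbol. All 78 also passed the low-count filter used for testing. Choice by symbol brings in Rps19bp1, which encodes a protein that binds RPS19 and is no ribosome subunit, and Rpl7l1, a paralog of Rpl7. It leaves out, among others, Fau and Rack1, whose ribosomal products carry other names.

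The RNA came from bone marrow-derived macrophages of wild-type C57BL/6 mice, grown for 7 days with macrophage colony-stimulating factor. One set of libraries came from cells given dimethyl itaconate (DI) at 250 µM for 12 h before stimulation, and an equal number from control cells without it (Ctrl). The sample labels spell the compound Demethyl Itaconate and the protocol names dimethyl itaconate. Both kinds of cells then received bacterial lipopolysaccharide (LPS) plus IFNg, the macrophage-activating interferon, and were sampled at 0, 1, 2, 4 and 6 h, so that the 0 h DI cells had DI alone. Each of the 10 groups holds 2 libraries, 20 in all. Nothing in the labels says whether the 2 come from separate mice or cultures, so p-values measure the spread between these samples, which may be technical. In such bulk samples, fewer cells of a type and less RNA per cell cannot be told apart.

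A cytosolic ribosome is built from a small subunit, whose proteins carry RPS names, and a large subunit, whose proteins carry RPL names, each around ribosomal RNA. The mRNAs of vertebrate ribosomal proteins begin with an unbroken run of pyrimidines, the 5' terminal oligopyrimidine (TOP) motif, through which mTOR signalling and LARP1 control their translation. That control acts on translation, which RNA counts do not measure. Activated macrophages make large amounts of new protein, and itaconate and its esters are known as modulators of their inflammatory response.

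Pyrimidine runs were searched near annotated starts, a wider criterion than the TOP motif, which stands at the start of the mRNA. RefSeq windows of 300 bases on GRCm38.p6 (250 before and 50 after the annotated start) were matched for 58 of the 78 genes. A run of at least 8 pyrimidines on the transcribed strand, within 50 bases of the start, was present in 46 of the 58, or 79.3%, against 39.3% of the 27025 genes with a window. Some other genes described below have runs further from the start, such as Rps23 and Rpl39, whose runs begin at bases 36 and 37 after it. The following 30-base stretches, with the run in capitals, are examples from genes whose RNA levels are described below.
Rpl14 (chr9:120571501-120571530, plus strand): agggcgggCCCTCTCTCTTCTCgctgagcg
Rps10 (chr17:27635226-27635255, minus strand): cgcgcacgCCCCTTCCTTTCCagcctccgc
Rps9 (chr7:3704025-3704054, plus strand): aaccgccttgTCTCTCTTTgtctcgggcct
Rps15a (chr7:118116143-118116172, minus strand): gcccggcccaCTCTCTTTCTgccatcttcc
Rps24 (chr14:24490711-24490740, plus strand): agcggTCCTCTTTTCCTCCTCTCCagctcc
Rpl28 (chr7:4792953-4792982, plus strand): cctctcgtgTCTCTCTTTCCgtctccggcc
Rpl38 (chr11:114668568-114668597, plus strand): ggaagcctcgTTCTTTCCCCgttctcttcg

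The run spans 14 bases in Rpl14, 13 in Rps10 and 9 in Rps9. In Rps24 it spans 19 bases and ends upstream of 1 of 2 annotated starts. The run of 10 bases in Rps15a also ends upstream of the annotated start, so neither stands at the annotated 5' end of the mRNA. In the 300-base windows, the ETS motif CCGGAAG, searched on both strands, was found in 41.4% of the 58 genes and in 9.93% of all genes. The NF-kB pattern, GGGA and after any 4 bases CC, stood at 22.4% against 22.9%, the antioxidant response element core TGACNNNGC at 19% against 14%, the E-box CACGTG at 10.3% against 8.09% and the TATA sequence TATAAA at 12.1% against 15.7%, all on both strands. These are matches of letters and not binding sites.

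Libraries held 3982073 to 6725447 counts in DI cells and 3655977 to 8938983 in Ctrl cells. DI libraries held fewer genes with 1 to 3 reads (333 to 674, against 1370 to 1741 in Ctrl) and more genes at 0 (11143 to 12356, against 9301 to 10859 in Ctrl), and the part of this in the results below was not tested. No ribosomal protein gene of the 78 was at 0 in any library. The median spread between the 2 libraries of a group, as a coefficient of variation over these genes, was 16.6% in DI and 11.5% in Ctrl, and highest in DI 0 h at 22.7%. All 12 macrophage markers were detected, with summed levels of 3961 to 7048 CPM in DI and 6095 to 8693 CPM in Ctrl. Neutrophil and granulocyte progenitor markers (9 of 9 detected) summed to 304 to 560 CPM in DI and 261 to 668 CPM in Ctrl. Fibroblast markers (7 of 8 detected in DI and 8 of 8 in Ctrl) summed to 8.06 to 41.9 CPM in DI and 39.2 to 71.8 CPM in Ctrl. Summed markers of T and NK cells, B cells, erythroid cells, mast cells and dendritic cells reached at most 23.6 CPM, with Cd3e, Ncr1, Hbb-bs, Klf1, Fcer1a, Tpsb2 and Cd209a among those at 0 throughout. The part of other cell types in the results was not tested.

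Single genes differed widely in counted level. Among the highest, Rpl26 had a mean of 815 CPM, Rps24 stood at 769, Rps9 at 697 and Rps29 at 675 CPM. The 10 highest genes took 35.8% of the reads of the 78, and 61 of them had at least 50 CPM. Just inside the limit stood Rpl37 at 11.1 CPM and Rpl22l1 at 13.1 CPM, and just outside it Rps12 at 8.64 CPM. The others outside were Rpl15 at 6.54, Rpl27 at 6.20, Rpl39l at 4.78, Rpl6l at 4.29, Rps27 at 3.30, Rpl10 at 2.90 and Rpl3l at 0.0168 CPM, and Rpl10l at 0. These levels are 3'-end reads, not divided by length, since the protocol reads 1 end of each transcript.

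**Figure D1:**
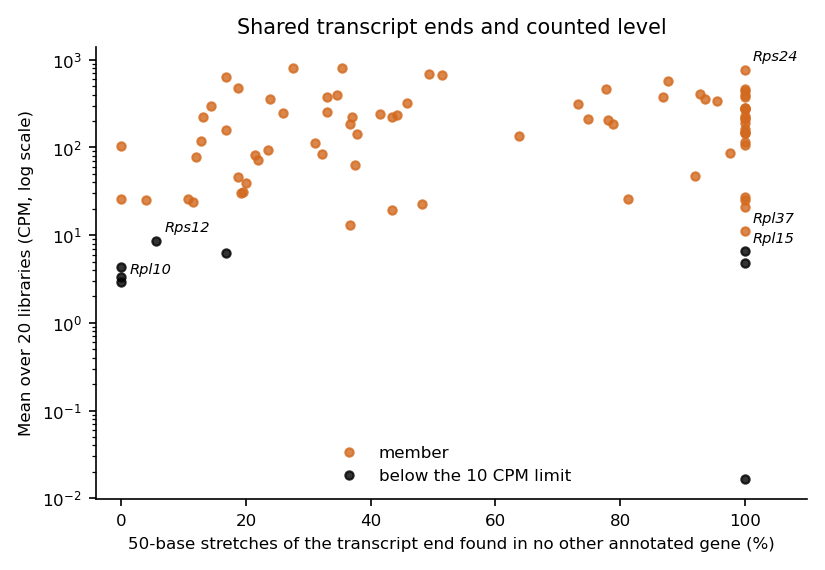
Each point is 1 gene. The x axis gives the percentage of 50-base stretches in the last 300 bases of its transcript that occur in no other annotated gene, and the y axis its mean CPM over 20 libraries on a log scale, for the 78 members and for those below 10 CPM (Rpl10l, at 0, cannot be drawn). Low genes such as Rpl10 at 2.90 CPM have few unique stretches, while Rpl37 at 11.1 CPM and Rpl15 at 6.54 CPM are low with fully unique ends.

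Ribosomal protein genes have many processed pseudogenes, which share their sequence. In the last 300 bases of 1 annotated transcript per gene, the median percentage of 50-base stretches found in no other annotated gene was 48.8% over the 78 and 16.7% over the 9 below the limit. Of the 78, 40 were under 50% unique and 23 were fully unique. The 40 had a median level of 130 CPM and the other 38 a median of 215 CPM. Across the 78 genes, Spearman's rho between unique percentage and level was 0.199, as a description over genes that share libraries. How reads with several matches were counted is not given in the sources used here. The counts of genes with shared ends, among them Rps9 at 49.4%, Rpl38 at 34.7%, Rps10 at 32.3% and Rps27rt at 11.6% unique, are therefore uncertain. Rps24, Rps20, Rps15a, Rps3, Rpl14 and Rps19bp1 had fully unique ends.

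**Figure D2:**
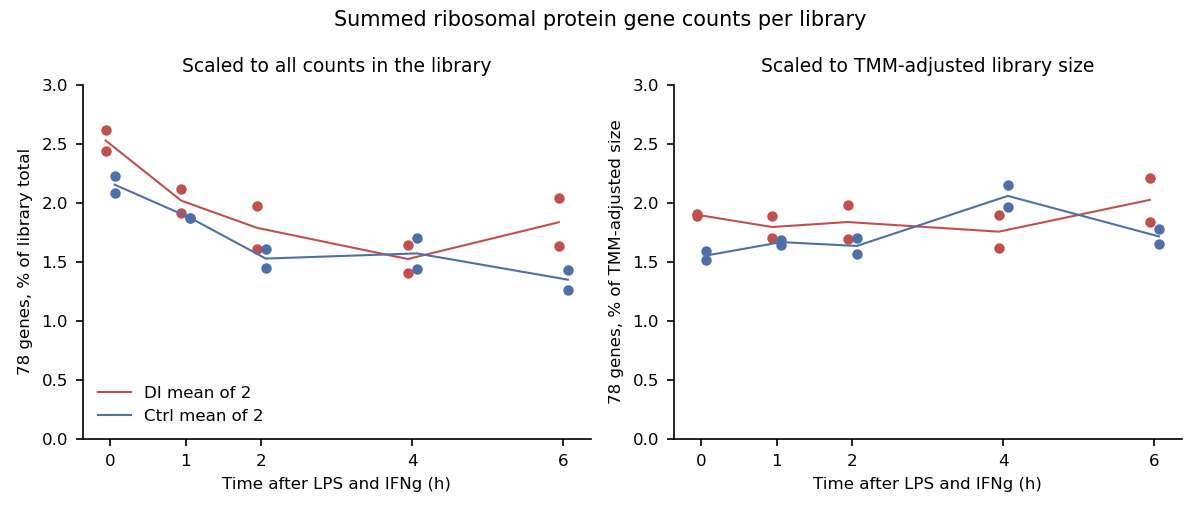
Points are single libraries and lines are means of 2, DI in red and Ctrl in blue, against hours after LPS and IFNg. The left panel gives the summed counts of the 78 genes as a percentage of library total, which ends at 1.83% in DI 6 h and 1.35% in Ctrl 6 h. The right panel gives the same sum over the TMM-adjusted library size, where DI 6 h is 2.02% and Ctrl 6 h 1.71%.

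Together the 78 genes made up 1.26% to 2.61% of a library. In DI cells the mean share was 2.53 ± 0.123% at 0 h and 2.02 ± 0.144% at 1 h (SD, n = 2). It was 1.79 ± 0.258% at 2 h, 1.52 ± 0.170% at 4 h and finally 1.83 ± 0.288% at 6 h. In Ctrl cells it was 2.15 ± 0.102% at 0 h and 1.87 ± 0.00343% at 1 h. It was 1.53 ± 0.110% at 2 h, 1.57 ± 0.188% at 4 h and finally 1.35 ± 0.122% at 6 h. All 4 libraries at 6 h lay below all libraries of the same treatment at 0 h, and at 0 h and 6 h both DI libraries lay above both Ctrl libraries. At 1 h and 2 h they did so too, by small margins, whereas at 4 h the treatments overlapped.

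The decline over time depends on the denominator. Trimmed mean of M values (TMM) scaling, used for all tests, multiplies library sizes by factors of 1.40 and 1.38 in the Ctrl 0 h libraries and of 0.734 to 0.808 in those at 4 and 6 h. Against the TMM-adjusted size, the mean share over time was 1.90, 1.79, 1.84, 1.75 and 2.02% in DI and 1.55, 1.67, 1.63, 2.06 and 1.71% in Ctrl. Genes with a small-subunit symbol had 0.770 to 1.04 times the counts of those with a large-subunit symbol in DI libraries and 0.777 to 0.953 times in Ctrl libraries, so the ranges overlap. The value of 1.04 came from the second DI 1 h library alone, and the next highest in DI was 0.928.

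**Figure D3:**
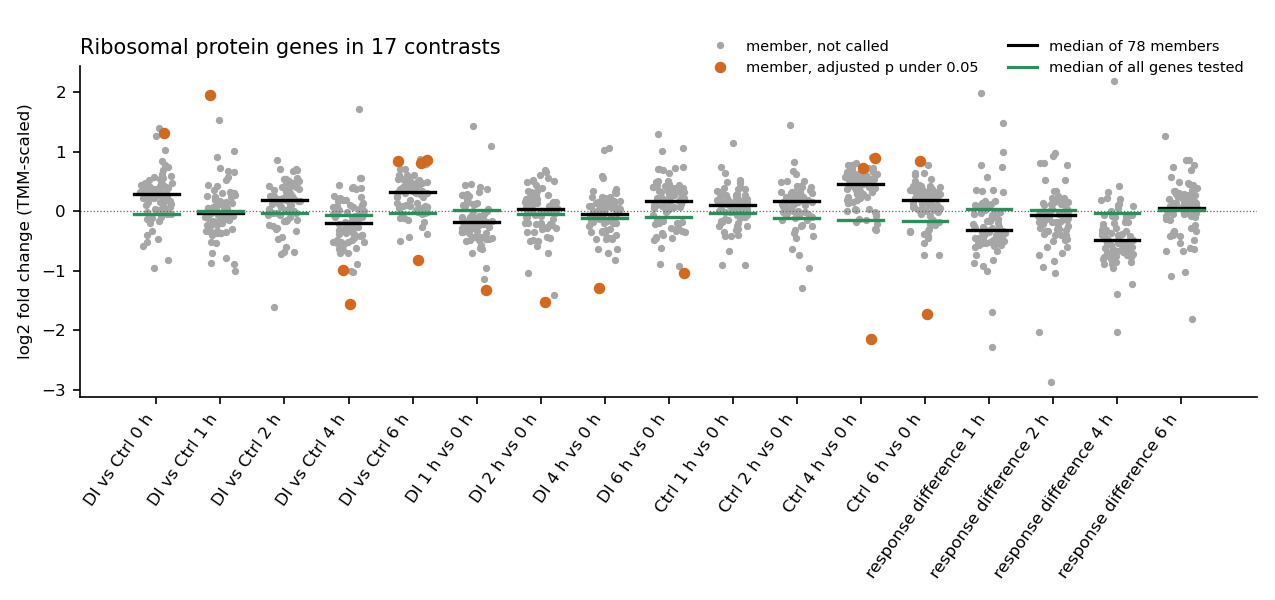
Each dot is 1 ribosomal protein gene in 1 of the 17 contrasts, with its log2 fold change on the y axis; dots past an adjusted p of 0.05 are larger and orange. The black line is the median of the 78 and the green line that of all 10663 genes tested; they stand furthest apart at Ctrl 4 h vs 0 h, at 0.47 and -0.15.

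Most ribosomal protein genes passed no test. In edgeR's quasi-likelihood test, with Benjamini-Hochberg adjustment over 10663 genes in each contrast, 17 of 1326 pairs of gene and contrast had an adjusted p under 0.05, or 1.28%, against 9.52% of such pairs over all genes tested. They belong to 10 genes, and 68 of the 78 were called in none of the 17 contrasts. The median standard error of a log2 fold change was about 0.30, and the smallest change called was 1.67-fold, for Rps15a. At 0 h after DI, 43 of the 78 had a 95% interval that lay within a 2-fold change either way, and at 4 h in Ctrl 24 did.

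DI pretreatment was compared with Ctrl at each time to ask what the ester changes before and during activation. At 0 h, after 12 h of DI alone, 1 of the 78 was higher and none lower, where 1.43% of all genes tested were called higher and 2.17% lower. The median log2 fold change was 0.28, against -0.05 over all genes, and 61 of 78 values were positive. Both DI libraries lay above both Ctrl libraries for 31 of the 78 (19.8% of all genes did so) and below them for 6 (26.7%). Genes of the same level as the ribosomal protein genes were not compared separately.

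The stalk proteins, which recruit elongation factors to the large subunit, had no called member. Rplp2 had 497 and 471 CPM in DI 0 h and 265 and 299 CPM in Ctrl 0 h, without overlap, a log2 fold change of 0.78 with an adjusted p of 0.082 (edgeR). Rplp0 had 150 and 68.8 CPM in DI 0 h and 81.7 and 102 CPM in Ctrl 0 h, so the groups overlapped. Rplp1 had 266 and 238 CPM in DI 0 h and 224 and 208 CPM in Ctrl 0 h, a log2 fold change of 0.22. Rpl38, which in mouse embryos is needed for the translation of some Hox mRNAs, had 592 and 364 CPM in DI 0 h and 281 and 252 CPM in Ctrl 0 h, a log2 fold change of 0.84 with an adjusted p of 0.099.

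The gene called at 0 h was Rps24, a small-subunit protein involved in rRNA processing and mutated in some cases of Diamond-Blackfan anaemia in humans. It had 719 and 2021 CPM in DI 0 h and 566 and 535 CPM in Ctrl 0 h, with a log2 fold change of 1.32 ± 0.35 (SE) and an adjusted p of 0.0309. The second DI library stood far above the first. Without it the log2 fold change was 0.38 with an adjusted p of 0.684. The call was also lost without either Ctrl library, where the values were 1.35 and 1.27.

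At 1 h, 1 gene was higher and none lower (1.86% and 3.03% of all genes). It was Rps23, a protein of the decoding centre, with 345 and 2498 CPM in DI and 373 and 360 CPM in Ctrl. The high DI library alone sets the log2 fold change of 1.96 ± 0.51 (adjusted p 0.0230, edgeR): without that library it was -0.093 with an adjusted p of 0.970. Without either Ctrl library it was 1.98 and 1.93 and no longer called. The same DI library was the high one for Rps19bp1, at 82.4 CPM against 25.9 CPM in the other DI library and 15.5 and 22 CPM in Ctrl. The median of the 78 was -0.03 and that of all genes 0.00.

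At 2 h no ribosomal protein gene was called by edgeR, where 6.24% of all genes were. Without adjustment, 7 had a p under 0.05, and DESeq2 called 1 gene lower. Shares of all genes on these 2 counts are not given, so nothing is read from them. The median was 0.20, against -0.03 over all genes.

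At 4 h, 2 genes were lower and none higher (6% and 3.43% of all genes). Rps9, which sits at the mRNA entry side of the small subunit, had 634 and 495 CPM in DI and 1130 and 1101 CPM in Ctrl, without overlap. Its log2 fold change was -0.98 ± 0.26 with an adjusted p of 0.0178 (edgeR). Rps27rt, named as a retrogene of Rps27, had 15.4 and 12.5 CPM in DI and 41.7 and 40.5 CPM in Ctrl, a log2 fold change of -1.56 ± 0.46 with an adjusted p of 0.0329. The median of the 78 was -0.19 against -0.06 over all genes, and both DI libraries lay below both Ctrl libraries for 31 of the 78 (31.2% of all genes). The Rps9 call was lost without the second DI library (-0.82) or either Ctrl library (-0.97 and -1.0). That of Rps27rt was lost without any 1 of the 4 libraries, with values of -1.73 to -1.42. Scaled to library total, no member was called lower at 4 h and 1 was called higher (4.12% and 5.28% of all genes on that scale).

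At 6 h, 3 genes were higher and 1 lower (5.24% and 8.95% of all genes). Rpl14, a large-subunit protein, had 296 and 371 CPM in DI and 201 and 164 CPM in Ctrl, a log2 fold change of 0.87 ± 0.28 (adjusted p 0.0361, edgeR). Rps3, a small-subunit protein at the mRNA entry channel that in human cells also binds the NF-kB subunit p65, had 456 and 324 CPM in DI and 196 and 236 CPM in Ctrl. Its log2 fold change was 0.85 ± 0.26 with an adjusted p of 0.0260. Rps10, another Diamond-Blackfan anaemia gene in humans, had 134 and 129 CPM in DI and 66.2 and 82.5 CPM in Ctrl, a log2 fold change of 0.82 ± 0.28 (adjusted p 0.0476). In all 3 the groups did not overlap.

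Rps9 was again the lower one at 6 h, with 551 and 506 CPM in DI and 1008 and 853 CPM in Ctrl. Its log2 fold change was -0.82 ± 0.26 with an adjusted p of 0.0376 (edgeR). At earlier times its DI libraries held 435 and 581 CPM against 664 and 865 CPM in Ctrl at 0 h, and 818 and 676 CPM against 613 and 674 CPM in Ctrl at 2 h, neither called. Both DI libraries were thus below both Ctrl libraries at 0, 4 and 6 h and just above them at 2 h, and at 1 h the treatments overlapped. Scaled to library total, the log2 fold changes were -0.80 at 4 h and -0.61 at 6 h, neither called.

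Each of the 4 calls at 6 h depended on single libraries. Those of Rps9 and Rps10 were lost without any 1 of the 4 libraries, with log2 fold changes of -0.94 to -0.70 and 0.67 to 0.98. That of Rpl14 was lost without the second DI library (0.69) or either Ctrl library (1.02 and 0.72), and that of Rps3 without the first DI library (0.58) or either Ctrl library (0.72 and 0.99). The median of the 78 was 0.33 against -0.03 over all genes, with 64 of 78 values positive. Both DI libraries lay above both Ctrl libraries for 37 of the 78 (23.7% of all genes) and below for 4 (29.7%). Scaled to library total, 7 of the 78 were called higher and none lower, where 7.5% of all genes were called higher and 6.56% lower.

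**Figure D4:**
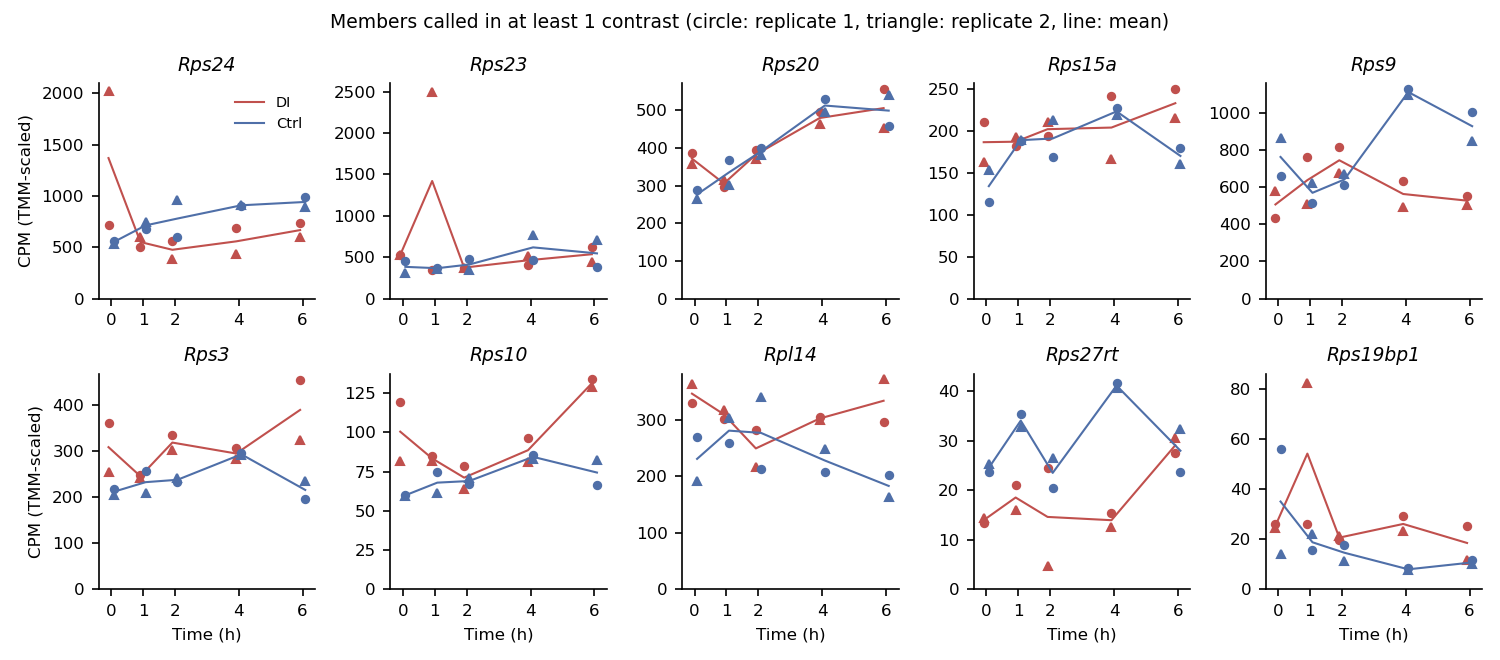
Levels of the 10 genes called in at least 1 contrast, in TMM-scaled CPM from 0 on the y axis, against hours after stimulation; DI is red and Ctrl blue, circles are replicate 1, triangles replicate 2 and lines means. Rps24 and Rps23 each have 1 DI library far above the rest, at 2021 and 2498 CPM, while for Rps9 both DI libraries lie below both Ctrl libraries at 4 and 6 h.

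Within DI cells, later times were compared with 0 h. Rps24 was lower at each of them, and no other ribosomal protein gene was called. Of all genes tested, 3.59, 11, 18.7 and 20.2% were called at the 4 times. Rps24 had 505 and 597 CPM at 1 h and 561 and 389 CPM at 2 h, against 719 and 2021 CPM at 0 h. It had 684 and 431 CPM at 4 h, and 738 and 597 CPM at 6 h. The log2 fold changes were -1.31, -1.53, -1.30 and -1.04, and these contrasts share the 0 h libraries. Without the second DI 0 h library they were -0.39, -0.60, -0.37 and -0.11 and not called. The 1 h call was also lost without either 1 h library (-1.20 and -1.44), the 2 h call without the second 2 h library (-1.29), the 4 h call without the second 4 h library (-1.01) and the 6 h call without either 6 h library (-1.20 and -0.90). Without the second DI library at 2, 4 and 6 h together, Rps24 was called at none of these times, and 1, 0 and 2 other genes were called higher: Rpl37 at 2 h, and Rpl37 and Rpl31 at 6 h.

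The medians of the 78 at the 4 times in DI were -0.17, 0.04, -0.05 and 0.17, against 0.02, -0.05, -0.12 and -0.10 over all genes. At 4 h both libraries lay above both 0 h libraries for 6 of the 78 (23% of all genes) and below for 13 (28.1%).

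Within Ctrl cells, none of the 78 was called at 1 h or 2 h by edgeR, where 4.07% and 12.2% of all genes were. Without adjustment 3 and 7 had a p under 0.05, and DESeq2 called none at 1 h and 1 at 2 h, again without shares of all genes to set beside them. At 4 h, 2 were higher and 1 lower (14.7% and 9.58% of all genes), and at 6 h, 1 was higher and 1 lower (15.2% and 11.3%). In either direction, 3 of 78 were called at 4 h, beside 24.3% of all genes, and 2 of 78 at 6 h, beside 26.5%.

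Rps20, a small-subunit head protein, was higher at both times. It had 530 and 497 CPM at 4 h and 458 and 541 CPM at 6 h, against 288 and 265 CPM at 0 h, without overlap. Its log2 fold changes were 0.89 ± 0.24 (adjusted p 0.00612, edgeR) and 0.85 ± 0.24 (adjusted p 0.00800). Levels between, at 368 and 303 CPM at 1 h and 399 and 383 CPM at 2 h, lay above those at 0 h. In DI cells it had 558 and 454 CPM at 6 h against 386 and 358 CPM at 0 h, with a log2 fold change of 0.44 that was not called. The Ctrl calls were lost without the second 0 h library (0.82 at 4 h and 0.79 at 6 h), without the first 4 h library (0.84) and without the second 6 h library (0.72). Scaled to library total the changes were 0.03 and 0.04. With TMM factors from genes of at least 32 CPM, neither was called.

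Rps15a, also of the small subunit, had 227 and 219 CPM at 4 h and 115 and 153 CPM at 0 h in Ctrl, a log2 fold change of 0.74 ± 0.26 (adjusted p 0.0436, edgeR). It was not called with TMM factors from genes of at least 32 CPM. The call was lost without any 1 of the 4 libraries, with values of 0.54 to 0.95, and scaled to library total the value was -0.12. Rps19bp1 had 8.34 and 7.47 CPM at 4 h and 11.5 and 9.86 CPM at 6 h, against 55.8 and 14.2 CPM at 0 h. Its log2 fold changes were -2.15 ± 0.56 and -1.72 ± 0.55 (adjusted p 0.00567 and 0.0229, edgeR). The 0 h libraries differ from each other by more than the later ones do. Without the first 0 h library the values were -0.85 and -0.42 and not called; the calls were also lost without the second 4 h library (-2.08) and without either 6 h library (-1.84 and -1.62).

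At 4 h in Ctrl the median log2 fold change of the 78 was 0.47, against -0.15 over all genes, and 68 values were positive. The same medians were -0.40 and -1.01 when scaled to library total, so the direction turns with the scale, and the 78 were not tested as a group. Both 4 h libraries lay above both 0 h libraries for 57 of the 78 (33% of all genes) and below for 2 (41.7%). By symbol, the median was 0.48 over the 32 small-subunit genes and 0.41 over the 46 large-subunit genes. At 6 h the median was 0.19 against -0.17, with 32 of the 78 above 0 h without overlap (32.2% of all genes) and 10 below (41.4%).

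Genes that were not called gave the following values at 4 h. Rpl28, a large-subunit protein, had 320 and 314 CPM at 4 h and 201 and 197 CPM at 0 h in Ctrl. Rpl7, likewise of the large subunit, had 382 and 299 CPM at 4 h and 187 and 223 CPM at 0 h, a log2 fold change of 0.73. Rps29, a small zinc-binding protein, had 952 and 737 CPM at 4 h and 607 and 594 CPM at 0 h. All 3 were without overlap, and none was called. In the fit of the 2 groups alone, which estimates the spread from these 4 libraries, 34 of the 78 were called higher and 1 lower at 4 h, where 23.6% of all genes were called higher and 23.4% lower. With quality weights by treatment in limma-voom 30 of the 78 were called higher, where 22.3% of all genes were.

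The direction of these time courses depends on scaling. Scaled to library total, no member was called higher at any time after stimulation: 12 were lower at 4 h and 26 at 6 h in Ctrl, and 25 at 4 h and 10 at 6 h in DI. Of all genes, 35.7% and 34.6% were called lower in Ctrl at these times, and 25.6% and 22.2% in DI. On that scale the median of all genes moved to -1.01 at 4 h and -0.99 at 6 h in Ctrl, and to -0.73 and -0.65 in DI. A change of scale moves all genes of a contrast nearly alike, so the distance from the median of all genes hardly depends on it. On the library-total scale, the median of the ribosomal protein genes stood higher by 0.62 at 4 h and 0.36 at 6 h in Ctrl. In DI it stood higher by 0.06 and 0.25. With TMM the same differences were 0.62 and 0.36 in Ctrl, and 0.07 and 0.26 in DI. The change of a ribosomal protein gene in copies per cell was not measured.

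The response difference, the change in DI minus the change in Ctrl from 0 h, was tested to ask whether DI altered the response itself. No ribosomal protein gene was called at 1, 2, 4 or 6 h by edgeR, where 0.253, 0.356, 0.76 and 1.55% of all genes were. Without adjustment 5, 5, 6 and 1 had a p under 0.05, and DESeq2 called 0, 2, 1 and 1. These counts too lack shares of all genes, and nothing is read from them. Standard errors are wider here, with a median of 0.42. The medians of the 78 were -0.32, -0.06, -0.48 and 0.06, against 0.05, 0.02, -0.02 and 0.03 over all genes. At 1 h and 2 h the lowest values among the 78 were -2.28 and -2.87, where Rps24 had -1.69 and -2.03. The lowest value at 4 h among the 78 belonged to Rps24, at -2.02 with an adjusted p of 0.052 (edgeR). Without the high DI 0 h library it was -1.09 with an adjusted p of 0.290, and without the other DI 0 h library -2.58 with an adjusted p of 0.00259.

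Other genes with known roles outside the ribosome were not called in any contrast. Rpl13a, which in human monocytes treated with IFNg leaves the ribosome to join the translation-silencing GAIT complex, had 515 and 332 CPM in DI 6 h and 301 and 373 CPM in Ctrl 6 h, which overlap. At 4 h it had 479 and 448 CPM in DI and 501 and 366 CPM in Ctrl. Rpl5 and Rpl11, which bind MDM2 together with 5S rRNA, differed in counted level, with means of 150 and 27.5 CPM. Rpl5 had 195 and 144 CPM in DI 6 h and 110 and 137 CPM in Ctrl 6 h, and Rpl11 had 39 and 28.9 CPM in DI 6 h and 31.5 and 33.5 CPM in Ctrl 6 h, which overlap. Rps6, the S6 kinase substrate, had 162 and 146 CPM in DI 6 h and 103 and 135 CPM in Ctrl 6 h, but varied between replicates, with 232 and 111 CPM in Ctrl 0 h.

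Paralog pairs were mostly uneven in counted level, but shared ends leave these comparisons uncertain. Rpl22, with a fully unique end, averaged 230 CPM and its paralog Rpl22l1, at 36.7% unique, 13.1 CPM. Rpl22l1 had 9.72 and 5.53 CPM in DI 0 h and 12.7 and 16.7 CPM in Ctrl 0 h, and 5.85 and 13.3 CPM in DI 4 h against 19.5 and 19 CPM in Ctrl 4 h, without overlap at either time and not called. Rpl7, at 25.9% unique, averaged 248 CPM and Rpl7l1, at 97.6% unique, 85.7 CPM. Rpl36a and Rpl36al were closer, at 103 and 113 CPM, but no stretch of the Rpl36a end was unique. Rps27l, a p53-responsive paralog of Rps27 in human cells, averaged 205 CPM, with 182 and 147 CPM in DI 4 h and 263 and 240 CPM in Ctrl 4 h (adjusted p 0.152, edgeR).

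The other panel genes were not called at 6 h either. Rps19, the gene most often mutated in human Diamond-Blackfan anaemia, had 295 and 260 CPM in DI 6 h and 163 and 199 CPM in Ctrl 6 h, a log2 fold change of 0.62 with an adjusted p of 0.142. Rpl3, near the peptidyl transferase centre, had 106 and 111 CPM in DI 6 h and 78.7 and 70.2 CPM in Ctrl 6 h, without overlap. Rps27a, made as a fusion with ubiquitin, had 349 and 225 CPM in DI 6 h and 237 and 187 CPM in Ctrl 6 h. Rpsa, also known as a laminin receptor, had 113 and 118 CPM in DI 6 h and 101 and 77.7 CPM in Ctrl 6 h. X-linked Rps4x had 187 and 112 CPM in DI 6 h and 116 and 132 CPM in Ctrl 6 h. Among the short proteins of the large subunit, Rpl39 had 296 and 231 CPM in DI 6 h and 200 and 214 CPM in Ctrl 6 h, and Rpl41 had 297 and 285 CPM in DI 6 h and 175 and 247 CPM in Ctrl 6 h. The DI libraries were higher without overlap for Rps19, Rpl3, Rpsa, Rpl39 and Rpl41, and overlapped with Ctrl for Rps27a and Rps4x. Over the 78 genes at 6 h, log2 fold changes ran from -0.82 to 0.87, and 38 had a 95% interval within a 2-fold change either way.

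**Figure D5:**
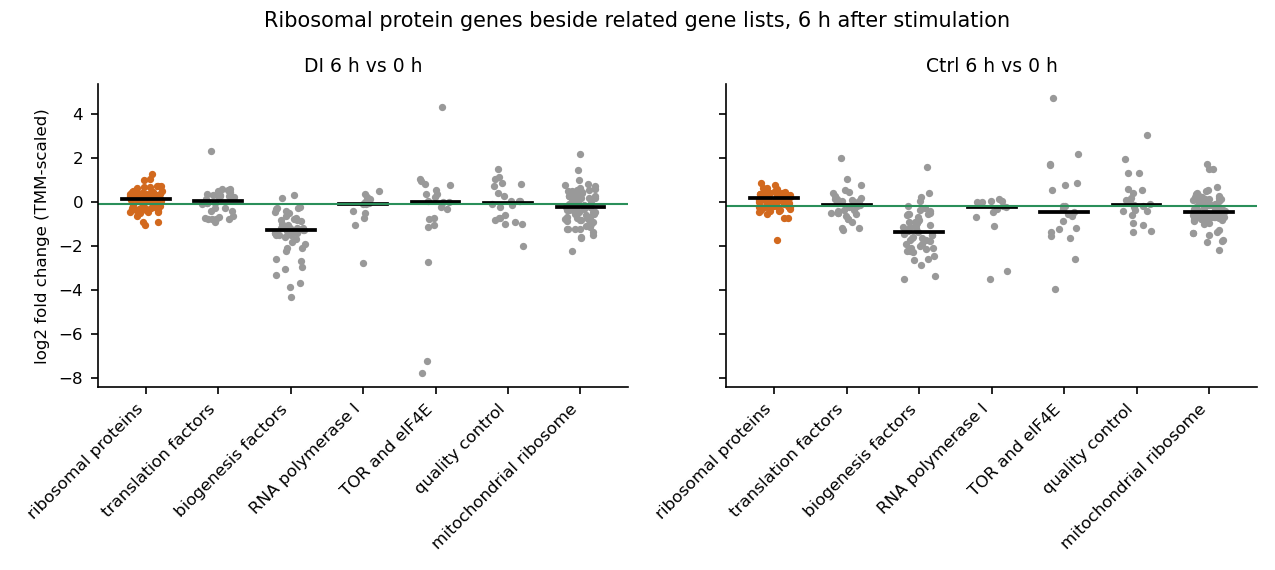
Log2 fold change at 6 h against 0 h (y axis) for ribosomal protein genes (orange) and 6 related lists (grey), DI on the left and Ctrl on the right. Black lines are list medians and the green line the median of all genes. Ribosomal protein genes sit at medians of 0.17 and 0.19, while ribosome biogenesis factors sit at -1.26 and -1.34.

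Many of the genes that assemble the ribosome fell at 4 h and 6 h in both treatments; no test of their difference from the ribosomal protein genes was run. Of 51 nucleolar and pre-ribosome factors, 11 fell at 4 h and 28 at 6 h in DI, and 18 fell at 4 h and 25 at 6 h in Ctrl, with none higher at these times. Of all genes tested, 7.34% and 8.91% were called lower in DI at 4 h and 6 h and 9.58% and 11.3% in Ctrl, and 11.4% and 11.2% were called higher in DI and 14.7% and 15.2% in Ctrl. The medians of the 51 were -0.83 and -1.26 in DI and -1.09 and -1.34 in Ctrl. Under the 4 scalings none was higher and at least 11 were lower. The alternative scalings left the median of all genes close to that with TMM or moved it down, so they could hardly weaken these falls. On library totals, 25.6% and 22.2% of all genes were called lower in DI and 35.7% and 34.6% in Ctrl. Dkc1, the pseudouridine synthase of box H/ACA particles, was lower at 6 h, with log2 fold changes of -3.87 in DI and -2.25 in Ctrl (adjusted p 1.66e-07 and 5.51e-05, edgeR). Utp20, of the small-subunit processome, had -3.30 and -2.59. Nop58, a core protein of box C/D particles, had -2.07 at 6 h in DI and -1.14 at 6 h in Ctrl. In Ctrl it had risen at 1 h and 2 h, by 1.10 and 1.33. Between treatments at 6 h, 5 biogenesis factors were higher in DI and 3 lower, where 5.24% of all genes were called higher and 8.95% lower. Gnl3, a nucleolar GTPase, was among the higher, with a log2 fold change of 1.63, and Dkc1 among the lower, with -1.69.

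A list of 32 other genes of the TOP class, most of them translation factors, can be read against the same shares of all genes. At 4 h, 2 rose and 1 fell in DI, and 6 rose and 2 fell in Ctrl. At 6 h, 1 rose and none fell in DI, with a median of 0.06, and 2 rose and 3 fell in Ctrl, with a median of -0.13. The gene that rose at 6 h in DI was Vim, and those that rose in Ctrl were Vim and Hnrnpa1, which encodes an RNA-binding protein. Pabpc1, the poly(A)-binding protein, rose by 1.06 on the log2 scale at 4 h in DI and by 1.08 in Ctrl. Vim rose by 2.32 at 6 h in DI and by 2.01 in Ctrl; it encodes vimentin, a cytoskeletal protein, and is no translation factor. Eif3a, a scaffold of initiation factor 3, fell by 1.18 on the log2 scale at 6 h in Ctrl. Between treatments at 4 h, none of the 32 was higher in DI and 2 were lower (3.43% and 6% of all genes). The lower ones were Eif3f and Hnrnpa1, with log2 fold changes of -1.34 and -1.31. At 6 h, 2 were higher in DI and none lower (5.24% and 8.95% of all genes). The higher ones were Eif2s3x and Eif4a1, by 1.06 and 0.79 on the log2 scale.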

How the data were processed

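The deposited table gives each library's raw read counts for Ensembl genes, which the authors had not normalized. Per the submitters' processing notes, STAR, HTSeq, DESeq2 and mm10 were used; versions and options are not given in the sources used here. Per the labels' protocols, libraries were strand-specific, made with a barcoded oligo-dT primer at the 3' end, pooled by Actb measured by qPCR and amplified for 12 cycles. No molecular identifiers are named, so reads of 1 molecule can be counted more than once. Of 22165 genes, 21745 matched a symbol in GENCODE M21.

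The tests were run with edgeR 4.0.16 in R 4.3.3: filterByExpr by group left 10663 genes, and 1 robust quasi-likelihood model with TMM scaling was fitted to all 20 libraries. The threshold for a call was an adjusted p of 0.05 (Benjamini-Hochberg within each contrast). Levels are TMM-scaled CPM; marker sums and the membership limit use library totals. Intervals are 95%. The model was also run on simulated counts, with the same spread for all genes and libraries and no outlying library. That run does not assess calls that rest on single libraries. Alternatives used limma 3.58.1 and DESeq2 1.42.0, other scalings and filters, fits of the contrast's groups alone, and each library left out in turn. Replicate numbers were not used to pair samples in the main fit.

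The genes, panel and lists were chosen with earlier results of these data known. Named genes are a panel, up to 8 called members with the largest changes per contrast and direction, those at the CPM limit, and up to 4 genes of each related list per contrast by p. Rpl26, cited for level, was chosen after its values were seen. Some items are not reported here.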

Additional observations from a re-analysis of the deposited data

How the results depend on the processing

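Counts of called ribosomal protein genes are small, and 70 of 196 combinations of an alternative and a contrast moved them by more than 1.5 times, leaving out single libraries apart; the counts that moved are given here. The filter of 5 CPM in 2 libraries moved 0 of 17. Quality weights by treatment were chosen after seeing the data. Without a low-count filter, 2, 3, 1, 4 and 1 genes were called for DI against Ctrl at 0, 1, 2, 4 and 6 h, 2 at 1 h and 2 at 2 h in DI, 3 at 2 h in Ctrl, and 1, 2, 2 and 1 in the response differences at 1, 2, 4 and 6 h. Scaled to library total, 1 and 7 were called for DI against Ctrl at 4 and 6 h, 2, 6, 25 and 10 at 1, 2, 4 and 6 h in DI, and 10, 12 and 26 at 2, 4 and 6 h in Ctrl. On that scale, 68 and 1217 of all 10663 genes were called lower at 1 and 2 h in DI, and 1638 at 2 h in Ctrl. The shares at 4 and 6 h are given above. Shares of all genes under most other settings are not given, so those counts show only how calls moved. With TMM factors from genes of at least 32 CPM, 2 and 2 were called at 1 and 4 h in DI, and 2, 1 and 4 at 2, 4 and 6 h in Ctrl. All of these were lower, and the Ctrl rises of Rps20 and Rps15a were not called. DESeq2 size factors moved the response difference at 4 h to 1. With limma-voom, 2 and 0 were called for DI against Ctrl at 0 and 1 h, 2 at 4 h in DI, and 1 and 1 at 2 and 6 h in Ctrl. With quality weights by treatment, 0 and 2 were called for DI against Ctrl at 1 and 6 h, 0 at 1, 4 and 6 h in DI, and 1, 7, 30 and 4 at 1, 2, 4 and 6 h in Ctrl. DESeq2 called 4, 1 and 4 for DI against Ctrl at 0, 2 and 4 h, 2 and 2 at 1 and 4 h in DI, 1 and 6 at 2 and 4 h in Ctrl, and 2, 1 and 1 in the response differences at 2, 4 and 6 h. With the groups of the contrast alone, 0, 0, 4 and 0 were called for DI against Ctrl at 0, 1, 4 and 6 h, 0 at each time in DI, and 1, 2, 35 and 6 at 1, 2, 4 and 6 h in Ctrl. Without DI replicate 2 at 2, 4 and 6 h together, 1 (lower) and 1 (higher) were called for DI against Ctrl at 4 and 6 h, and 0 and 2 (both higher) at 4 and 6 h in DI, where Rps24 had been lower; at 2 h in DI the 1 gene called was higher in place of Rps24. At a member limit of 50 CPM, 1 was called for DI against Ctrl at 4 h and 1 at 6 h in Ctrl.

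With each library of a contrast left out in turn, the counts were 0 to 3, 0 to 4, 0 to 1, 0 to 1 and 0 to 1 for DI against Ctrl at 0, 1, 2, 4 and 6 h, and 0 to 1, 0 to 3, 0 to 3 and 0 to 6 at 1, 2, 4 and 6 h in DI. They were 0 to 0, 0 to 1, 1 to 2 and 0 to 1 at the same times in Ctrl, and 0 to 1, 0 to 2, 0 to 1 and 0 to 1 in the response differences. Such a fit assumes that the lone library varies like the other groups.

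Positive median changes turned negative under library totals in Ctrl at 1, 2, 4 and 6 h (-0.19, -0.40, -0.40 and -0.63) and in DI at 2 and 6 h (-0.41 and -0.40), and with TMM factors from genes of at least 32 CPM in Ctrl at 2 and 6 h (-0.030 and -0.12) and in DI at 2 and 6 h (-0.094 and -0.014). The negative median of the response difference at 2 h became 0.05 under library totals. Leaving out single libraries also turned medians near 0, to values of -0.12 to 0.14, for DI against Ctrl at 1 h, Ctrl at 1 h, DI at 2 and 4 h and the response differences at 2 and 6 h, and leaving out the 3 DI libraries turned that of DI at 4 h (0.0026). Rps15a at 4 h in Ctrl was -0.12 under library totals, and Rps23 at 1 h for DI against Ctrl ran between -0.093 (DI 1 h replicate 2 left out) and 2.77 (DI 1 h replicate 1 left out). The cause was not tested. The summed share moved by more than the spread between replicates in 15 of 20 libraries with TMM-adjusted sizes, in 2 of 20 without Rps19bp1 and Rpl7l1, and in 0 of 20 without the CPM limit.

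Across genes, deviations of libraries with the same replicate number had correlations of -0.143 to 0.113 over 45 pairs of groups, with 2 over 0.1. This weighs all tested genes alike, those with few reads included, so a weak shared deviation could be missed. Replicate 2 had the lower mitochondrial share of counts in every group, such as 1.54% against 2.17% in DI 6 h and 1.39% against 1.81% in Ctrl 0 h. In every DI group it also had fewer genes with 1 to 3 reads. The part of this in the calls was not tested beyond the block below. With the replicate number as a block, 2 genes were called at 4 h in DI, against 1 without it, and the Rps10 call for DI against Ctrl at 6 h missed the threshold (adjusted p 0.0522, edgeR); no other called ribosomal protein gene lost its call.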

Other observations

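Of 21 regulators of TOR, TOP translation and eIF4E, 3 rose and 4 fell at 6 h in DI, and 5 rose and 5 fell in Ctrl. Of all genes tested, 11.2% rose and 8.91% fell at 6 h in DI, and 15.2% rose and 11.3% fell in Ctrl. Mxd1, which encodes a repressor that competes with MYC for MAX, rose by 4.31 at 6 h in DI and by 4.73 in Ctrl on the log2 scale (adjusted p 6.03e-11 and 1.23e-11, edgeR). Larp1, the TOP mRNA-binding protein, rose by 0.94 at 6 h in DI and by 1.76 in Ctrl. Eif4ebp1 and Eif4ebp2, inhibitors of the cap-binding factor, were higher in DI than in Ctrl at 6 h, by 1.68 and 1.26. The other 3 called in that comparison were lower in DI: Eif4g2, a translation initiation factor, at -1.67, Max at -0.86 and Mxd1 at -0.84. Of all genes, 5.24% were called higher and 8.95% lower for DI against Ctrl at 6 h. Among 22 genes of ribosome recycling and quality control, Sbds and Eif6, which act in the last step of large-subunit maturation, were both called. Sbds rose by 3.06 at 6 h in Ctrl and its log2 fold change for DI against Ctrl at 6 h was -2.01; its response difference was -2.24 (adjusted p 0.0185, edgeR). Eif6 rose by 1.51 at 6 h in DI and by 1.31 in Ctrl, and its log2 fold change for DI against Ctrl at 6 h was 1.01. The other gene of the list called in that comparison was Denr, at -1.26.

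Mitochondrial ribosomal protein genes, which build a separate ribosome, are set beside the same shares of all genes. Of 76 tested, 3 rose and 7 fell at 6 h in DI, and 3 rose and 6 fell in Ctrl, with medians of -0.23 and -0.46. Mrps5 fell by 1.64 on the log2 scale at 6 h in DI and Mrpl22 rose by 1.73 at 6 h in Ctrl. Of 13 genes of RNA polymerase I transcription, 2 fell at 4 h in each treatment, where 7.34% of all genes fell in DI and 9.58% in Ctrl. Among them was Ubtf, the rDNA-bound HMG-box factor, with log2 fold changes of -1.19 in DI and -1.28 in Ctrl.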
